A study of Homo sapiens with 27 samples.

Results

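Deletion levels were read from the negative control libraries of a DKC1 knockdown experiment in HEK293T cells, a human embryonic kidney line. They cover small nuclear RNAs (snRNAs), small nucleolar RNAs (snoRNAs) and small Cajal body RNAs (scaRNAs), and a deletion is the readout of pseudouridine. The authors' tables listed 101 sites on 64 RNAs, and the sites with at least 20 covering reads in each of the 2 treated libraries were kept, without regard to their level. These were 97 of 101 sites on 60 RNAs: 28 snRNA sites, 37 sites on H/ACA snoRNAs, 27 on C/D snoRNAs and 5 on scaRNAs. The site tables of the whole series hold 3080 rows.

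All 3 libraries came from cells of the genotype DKC1 NC, the control of the knockdown, and the labels do not say which reagent the control cells received or whether they are 1 clone. Small RNA was demethylated with the enzyme AlkB before it was split, so the treated and untreated libraries share that step. Each technical replicate started from 300 ng, and 100 ng of demethylated RNA was kept as the untreated library. The treated libraries went through PRAISE, in which a bisulfite-type reagent forms an adduct on pseudouridine that is read as a deletion. The level of a site is therefore the percentage of covering reads that carry a deletion. How completely pseudouridine is read as a deletion is not given in the sources used here, so a level is not a measured share of modified RNA. The series comprises 27 samples of 9 genotypes, of which these 3 are described. The treated libraries are technical replicates, so each SD (n = 2 throughout) measures technical spread, and the single untreated library has no replicate. No p-value covers more than counting error and technical spread, and those of Fisher's exact test cover counting error only.

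Pseudouridine is an isomer of uridine made after transcription. H/ACA snoRNAs direct its formation by pairing with a target RNA in a complex whose catalytic subunit is dyskerin, the product of DKC1, while C/D snoRNAs direct 2′-O-methylation and scaRNAs guide modification of the spliceosomal snRNAs. Some C/D RNAs, U3, U8 and U13 among them, take part in ribosomal RNA processing. In the spliceosome U1 pairs with the 5′ splice site, U2 with the branch site, U5 touches both exons and U6, released from U4, enters the catalytic core. U12, U4atac and U6atac have the corresponding roles in the minor spliceosome.

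The snRNA with the most sites is shown first, from its GENCODE 29 transcript on GRCh38, 5′ to 3′ as DNA letters, with listed sites in capitals. The stretch is the start of RNU2-1, the U2 gene, at chr17:43233878-43233977 on the minus strand, from the first nucleotide of the RNA.
RNU2-1: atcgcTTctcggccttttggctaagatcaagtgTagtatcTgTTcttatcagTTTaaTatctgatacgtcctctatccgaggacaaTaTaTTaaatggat

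Of the 6 snoRNAs with 3 tested sites, 3 are shown whole in the same way, as examples of RNAs whose sites differ in level. SNORA13, an H/ACA RNA, lies at chr5:112161485-112161617 on the plus strand in an intron of the long noncoding gene EPB41L4A-AS1. SNORD21, a C/D RNA, lies at chr1:92837289-92837383 on the plus strand in an intron of RPL5, a ribosomal protein gene. SNORD118 is U8, at chr17:8173454-8173587 on the minus strand, where it overlaps an exon of TMEM107 in the annotation; its transcript begins 1 nucleotide after the start of the tables' numbering.
SNORA13: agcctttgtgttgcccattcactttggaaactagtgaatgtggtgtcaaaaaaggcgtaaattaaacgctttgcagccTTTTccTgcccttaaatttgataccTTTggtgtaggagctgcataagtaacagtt
SNORD21: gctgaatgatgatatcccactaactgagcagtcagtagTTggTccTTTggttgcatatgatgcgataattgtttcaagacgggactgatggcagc
SNORD118: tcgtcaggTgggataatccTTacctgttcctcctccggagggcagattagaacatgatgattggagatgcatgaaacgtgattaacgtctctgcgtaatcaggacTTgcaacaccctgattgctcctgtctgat

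Levels ran from 5.47% to 97.6%. The median was 26.8% over the 28 snRNA sites, with 26.9% and 26.7% in the treated libraries, and 19.4% over the 69 sites of the snoRNA table, with 17.4% and 19.4%. H/ACA sites had a median of 15.7%, C/D sites of 19.4% and scaRNA sites of 25.0%. Of the 97 sites, 50 lay below 20%, 19 between 20% and 50%, and 28 at 50% or more. The snRNA levels fell into a low and a high set, with 14 sites at 18.7% or less, RNU1-1 5-6 at 35.0% and 13 at 49.7% or more, so the snRNA median stands in a gap between RNU4ATAC 9-12 and RNU1-1 5-6. Depth differed widely between sites: the snRNA sites had 250 to 509452 covering reads in a treated library, and the kept snoRNA-table sites 22 to 67616.

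Every one of the 97 sites had a higher level in both treated libraries than in the untreated library. By a quasi-binomial test with dispersion moderated by limma, adjusted over each table, all 28 snRNA and all 69 snoRNA-table sites had an adjusted p under 0.05, with the largest at 2.68e-04 and 0.0263. When the gap had to reach 10 points as well, 22 of 28 snRNA sites were called higher (78.6%) and 58 of 69 snoRNA-table sites (84.1%), of which 31 were H/ACA, 22 C/D and 5 scaRNA. All tested sites of each table are members, so these shares are the background itself. The rule by which the authors listed sites is not given in the sources used here; the smallest difference was 5.30 points among snRNAs and 5.57 among the others, so the tables hold no site near the untreated level, and the counts describe a list already selected.

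**Figure D1:**
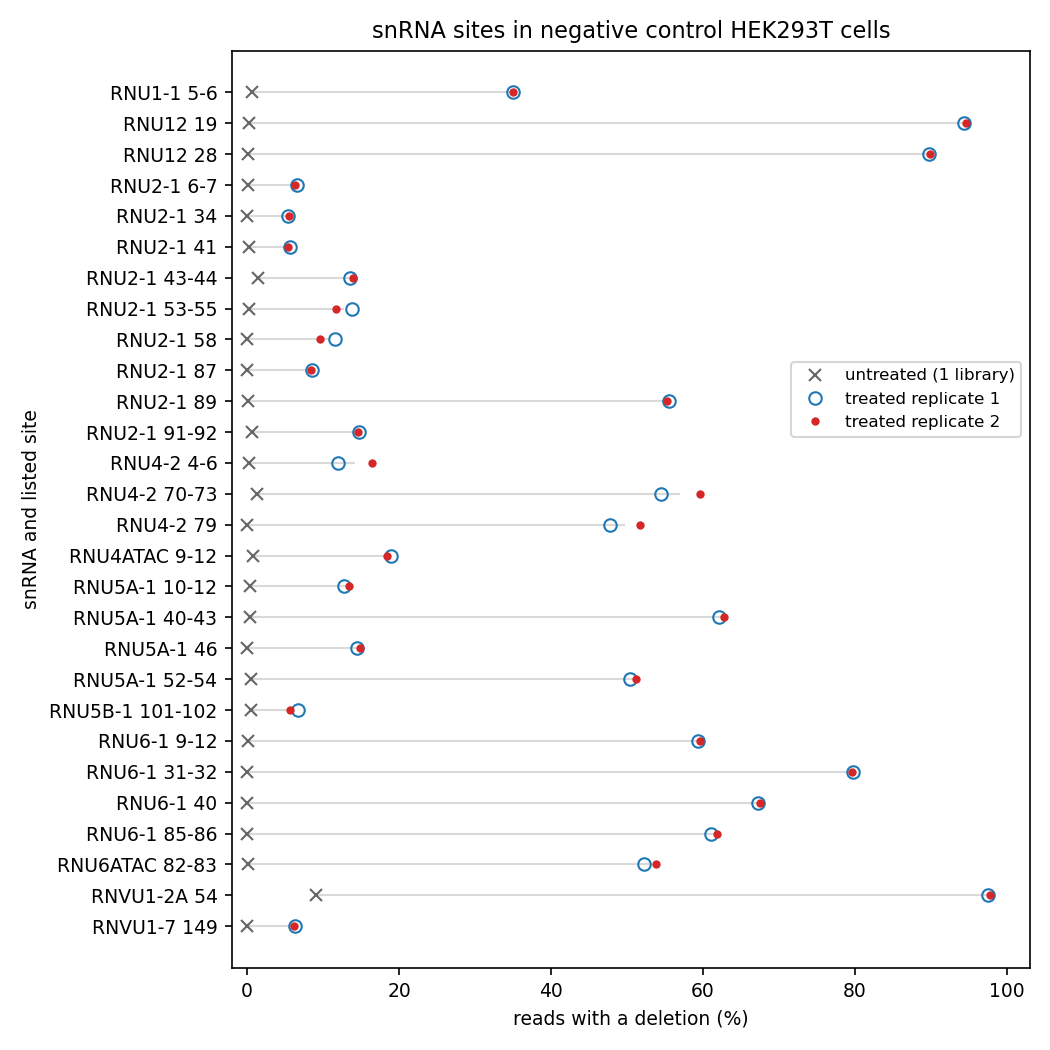
Percentage of reads with a deletion (horizontal axis) at each of the 28 listed snRNA sites (vertical axis, gene and position in the RNA) in treated replicate 1 (open circles), treated replicate 2 (red dots) and the untreated library (crosses). The sites of U12 and U6 lie at 59.4% or more, 8 of the 9 U2 sites at 14.6% or less, and the only cross above 2% is that of RNVU1-2A.

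U12, the minor spliceosome's counterpart of U2, had the highest levels of any snRNA outside the U1 variants. Site 19 read 94.4% and 94.7% in the treated libraries (94.5% ± 0.202) against 0.190% untreated, and site 28 read 89.8% and 89.9% (89.9% ± 0.0841) against 0.0623%. Their windows are chr22:42615252-42615272 and chr22:42615261-42615281 on the plus strand, and both sites are single uridines.
RNU12 19: aacttatgagTaaggaaaata
RNU12 28: gtaaggaaaaTaacgattcgg
The other minor spliceosome RNAs were lower. RNU6ATAC 82-83 read 52.2% and 53.9%, and RNU4ATAC 9-12 read 18.9% and 18.5%. The 4 minor spliceosome sites had a median of 71.5%, against 14.6% over the 22 sites of U1, U2, U4, U5 and U6; no test was made over sites, which share RNAs.

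U2 carried the most listed sites, 9 of the 28, and 8 of these were low. Site 89 read 55.5% and 55.2% (55.3% ± 0.196), while its close neighbours 87 and 91-92 read 8.47% ± 0.138 and 14.6% ± 0.0964. Towards the 5′ end, in the region that includes the stretch pairing with the branch site, site 34 read 5.43% and 5.50%, site 41 read 5.69% and 5.32%, and site 43-44 read 13.6% and 14.0%. Sites 53-55 and 58, just 3′ of that stretch, had means of 12.7% and 10.6%, and site 6-7 one of 6.43%. No other U2 site had a library above 14.7%, so site 89 stood apart from all of them.

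U2 also had the lowest ratio of treated to untreated coverage. Its sites had 3350 to 30205 reads in a treated library and 1424952 to 1500020 in the untreated one, a ratio from 0.00238 to 0.0203. The ratio was not even along the RNA: sites 6 to 58 had 3350 to 6079 treated reads, sites 87 to 92 had 27497 to 30205, and the untreated coverage stayed between 1424952 and 1500020. RNU1-1 and RNU5A-1 also had low ratios, of 0.0155 and 0.0154 to 0.0276, whereas RNU6-1 9-12, 31-32 and 40 had ratios of 0.923 to 0.968 and the U12 sites 10.5 and 11.3. Over the 28 snRNA sites the level rose with the log2 coverage ratio (Pearson r = 0.694, Spearman rho = 0.636, as a description of sites that share RNAs and libraries), and over the 69 snoRNA-table sites it did not (r = -0.0839). The part of this coverage difference in the U2 levels was not tested. Library sizes are not in the tables, so a ratio compares sites and not amounts of RNA.

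**Figure D2:**
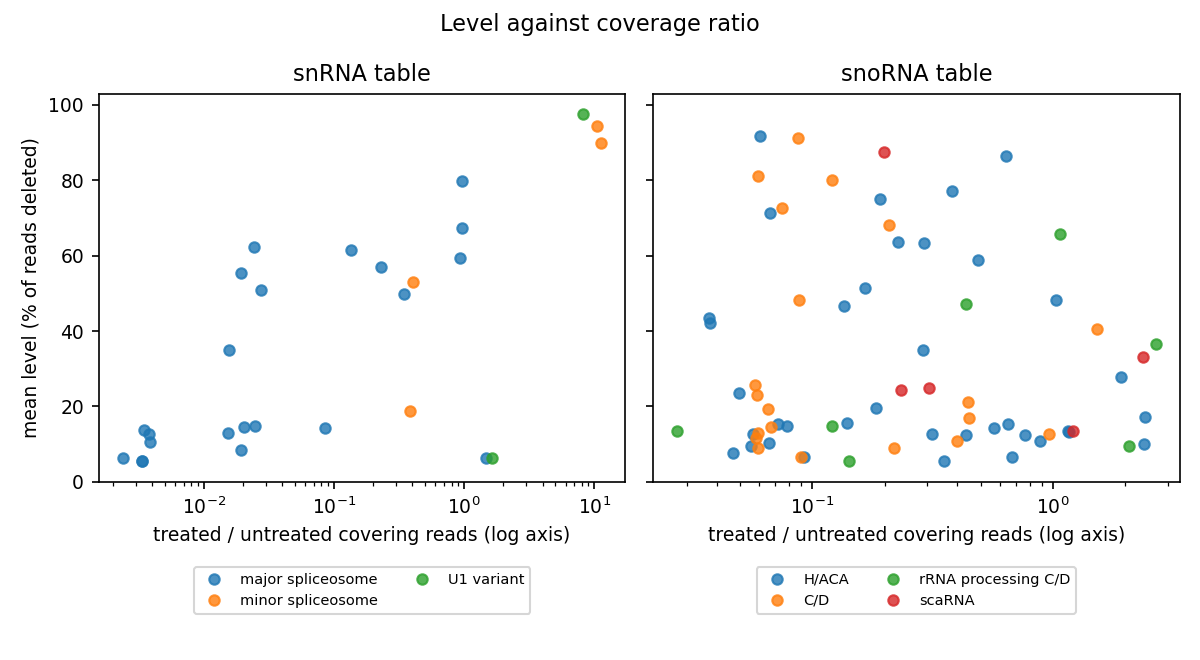
Mean level of each site (vertical axis, percent of reads deleted) against the ratio of covering reads, mean of the treated libraries over the untreated library (horizontal log axis), for the snRNA table (left) and the snoRNA table (right), coloured by RNA group. The U2 sites from 6-7 to 58 form the left end of the snRNA panel at ratios of 0.00238 to 0.00384. The U2 sites 87 to 91-92, at 0.0192 to 0.0203, lie near those of RNU1-1 and RNU5A-1. U12 forms the right end at 10.5 and 11.3, while the snoRNA panel shows low and high levels across its range of ratios.

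U6, the RNA of the catalytic core, had high levels at all 4 listed sites. Site 31-32 read 79.8% and 79.7% on 468160 and 509452 reads, site 40 read 67.2% and 67.5%, and site 85-86 read 61.1% and 61.9% on only 3419 and 3827 reads. Site 9-12 read 59.3% and 59.6%; it was the only one of the 95 sites with a sequence that did not consist of uridines alone, so what it refers to cannot be told from the tables.

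RNU5A-1, a U5 RNA whose conserved loop touches the exons, had 2 high and 2 low sites. Site 40-43 in that loop read 62.0% and 62.7% (62.4% ± 0.496), and site 52-54 read 50.4% and 51.2%. Site 46, close to 40-43, read 14.5% and 14.9%, and site 10-12 read 12.7% and 13.4%. The only listed site of RNU5B-1, a copy with 94.0% identity to RNU5A-1, was 101-102 with 6.75% and 5.69%.

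U4, which holds U6 inactive until it unwinds, had 3 sites in RNU4-2. Sites 70-73 and 79 read 54.4% and 59.6%, and 47.7% and 51.7%, and site 4-6 near the 5′ end read 12% and 16.4%. Replicate 2 was higher at all 3, on 250 to 745 reads, with overlapping 95% Wilson intervals at site 79 (43.7% to 51.7% and 48.1% to 55.3%; these intervals cover counting error only). U1 had a single site, RNU1-1 5-6, in the stretch that pairs with the 5′ splice site, which read 35.0% in both libraries.

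The U1 variants gave the highest and one of the lowest snRNA levels. RNVU1-2A 54 read 97.5% and 97.7%, but its untreated level of 9.09% was the highest of all, from 11 of 121 reads (Wilson 5.15% to 15.5%). RNVU1-7 149 read 6.31% and 6.22%. RNVU1-2A is 92.1% and RNVU1-7 99.4% identical to RNU1-1, so reads of U1 copies may be shared between them and the values of all 3 are uncertain in origin. The same holds for RNU2-1, with 14 near-identical gene copies in the annotation, 10 of them fully identical, and RNU6-1, with 43, of which 6 are fully identical.

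In the order of snRNA levels, 10 of the 27 neighbouring pairs had overlapping ranges of their 2 libraries. RNU4-2 70-73 overlapped both RNU6-1 9-12 above it and RNU2-1 89 below it, RNU5A-1 52-54 overlapped RNU4-2 79, and among the lowest sites RNU2-1 6-7, RNVU1-7 149 and RNU5B-1 101-102 overlapped one another. The 7 highest sites, from RNVU1-2A 54 down to RNU6-1 85-86, were each separated from the next below.

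Among the H/ACA snoRNAs, the guides of pseudouridylation, 27 RNAs had tested sites: 20 with 1 site, 4 with 2 and 3 with 3. SNORA13 had both high and low sites. Site 104-106 read 91.9% and 91.4% (91.7% ± 0.304), site 79-82 read 71.8% and 70.6%, and site 85, only 3 nucleotides after the latter, read 10.3% and 10.1%. SNORA75, in an intron of the nucleolin gene NCL, likewise read 86.3% and 86.6% at site 84-85 but 6.93% and 6.24% at site 97. In neither RNA did the libraries of a high and a low site overlap. Both windows of SNORA75, chr2:231455842-231455863 and chr2:231455830-231455850 on the minus strand, are shown because they overlap.
SNORA75 84-85: agaactagcaTTattttacctt
SNORA75 97: ttttaccttcTgtctttacag

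SNORA67, in an intron of the translation factor gene EIF4A1, had a low site 86-88 with a mean of 12.6% and nearby sites 101 and 104-105 with 43.5% and 42.1%. The latter were higher in replicate 1, with 47.5% and 46.8% against 39.4% and 37.5%, on 139 and 208 reads. SNORA61 had only modest levels, 9.60% at site 95, 23.5% at site 102 and 7.74% at site 104. Of the remaining H/ACA sites, SNORA38 82-84 (79.8% and 74.5%) and SNORA101B 16 (76.8% and 73.1%) were the highest, and SNORA79 97 (5.65% and 5.56%) and SNORA4 15-19 (6.62% and 6.50%) the lowest. SNORA56, whose gene overlaps an exon of DKC1 itself in the annotation, read 9.93% ± 1.75 at site 31 and 17.1% ± 0.489 at site 42.

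Some of the H/ACA sites stood within a narrow range of distances from the end of the RNA. An H/ACA snoRNA ends in an ACA box with 3 more bases, and 18 of the 24 H/ACA transcripts with a sequence ended so. Of the 27 tested sites on those RNAs, 10 (37.0%) had 42 to 46 bases between the site and the box, against 39 of 722 (5.40%) of all their uridines. A site was placed by its last base and counted once, and 7 of the 10 cover more than 1 nucleotide. Uridines were counted singly, so the shares have unlike units. The median level of these 10 was 55.2%, and it was 13.5% at the other 17. The window was chosen after the positions were seen, the sites share RNAs, and the 10 range from 10.2% (SNORA13 85) to 86.5% (SNORA75 84-85), so these figures are a description without a test. A site outside the window, SNORA13 104-106, had the highest level of all H/ACA sites.

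**Figure D3:**
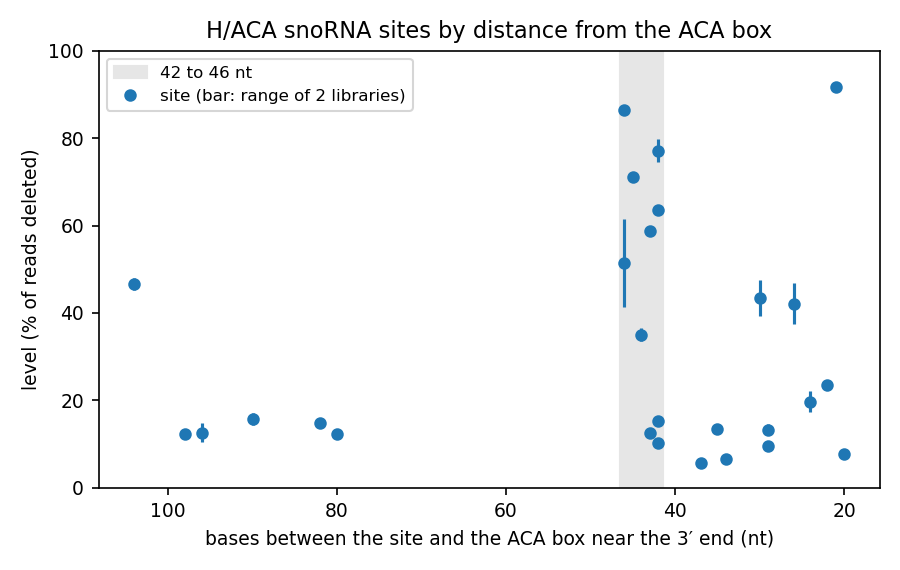
Level of the 27 H/ACA snoRNA sites on RNAs whose ACA box was read (vertical axis, percent of reads deleted; points, mean of 2 libraries; bars, their range) against the bases between site and box (horizontal axis, nt, the RNA's 3′ end to the right). The grey band marks 42 to 46 nt, where 10 of the 27 sites lie with a median of 55.2%.

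The H/ACA windows in that band with levels above 50% follow, with capitals at the site. They lie at chr11:93733504-93733526 (SNORA18, minus strand), chr6:31623150-31623172 (SNORA38, plus), chrX:119787392-119787416 (SNORA69, minus) and chr3:12840354-12840375 (SNORA7A, minus); the windows of SNORA13 and SNORA75 are above.
SNORA18 82-84: gtggttttacTTTactcacagga
SNORA38 82-84: tttgggaaacTTTgaggccagct
SNORA69 79-83: gtgttaatcaTTTTTgattttgcct
SNORA7A 86-87: gaggcacccaTTccattcccag
SNORA18 read 63.6% and 63.4% and SNORA69 58.1% and 59.6%. SNORA7A 86-87 had the largest gap of all sites between the libraries, 61.5% and 41.4%, on 78 and 128 reads.

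C/D snoRNAs, best known as guides of methylation, carried 27 tested sites on 17 RNAs. SNORD21 held 3 within 10 nucleotides that formed a steep series: 39-40 read 92.8% and 89.7% (91.3% ± 2.23), site 43 read 45.5% and 50.8% (48.1% ± 3.71), and 46-48 read 5.85% and 7.26% (6.55% ± 1.00), on 949 to 1129 reads. The treated coverage was nearly the same at the 3 sites, and the ranges of the libraries did not overlap. Other high C/D sites were SNORD45A 57-59 (73.5% and 88.7% on 49 and 71 reads), SNORD88A 68-70 (76.6% and 83.8% on 47 and 37 reads) and SNORD16 51 (72.0% and 73.0% on 7014 and 8102 reads). Of these only SNORD16 was deeply covered.

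The C/D RNAs of ribosomal RNA processing had 7 sites with a median of 14.8%. U8 (SNORD118) read 9.44% and 9.74% at site 10, 36.6% and 36.8% at site 21-22 and 48.7% and 45.7% at site 107-108, with up to 67616 reads, the deepest of the snoRNA table. U3 (SNORD3A) was low at all of its sites: 11-13 had 13.5% ± 0.0918, 48-50 had 14.8% ± 0.147 and 181-182 had 5.66% ± 0.463. The annotation holds 5 near-identical copies of SNORD3A, so its reads may come from more than one gene. U13 (SNORD13) read 67.9% and 63.4% at site 72-73, on 134 and 175 reads.

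The deletions of SNORD2 21, SNORD32A 27 and SNORD51 30 fall in the same local sequence, catctttcg, which is the longest stretch that their windows share. The stretch was taken from these sites, so its presence in all 3 is no separate result. It occurs in 3 of the 58 RNAs with a sequence, and in each of the 3 the listed site is its first uridine. The windows are chr3:186784806-186784826, chr19:49489982-49490002 and chr2:206161900-206161920, all on the plus strand.
SNORD2 21: atggcaatcaTctttcgggac
SNORD32A 27: acattcaccaTctttcgtttg
SNORD51 30: caaatcaccaTctttcggctg
SNORD32A read 68.2% in both libraries, on 22 reads each (Wilson 47.3% to 83.6%), and was the site just inside the coverage minimum. SNORD51 read 19.0% and 19.8% on 63 and 81 reads, outside that interval. SNORD2 had 13 reads in each library and was not tested.

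The 5 scaRNAs with a tested site had 1 each. SCARNA16 106-108 read 91.7% and 83.3% on 48 reads in each library, SCARNA11 14-18 read 33.2% and 32.9%, and SCARNA18 21-22 read 12.8% and 14.1%. SCARNA27 78-81 read higher in replicate 2 (18.4% and 31.5%) and SCARNA5 99-101 in replicate 1 (32.3% and 16.7%, on 31 and 36 reads). The scaRNA median is therefore poorly set, at 32.3% and 31.5% in the single libraries and 25.0% for the means of the 2.

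**Figure D4:**
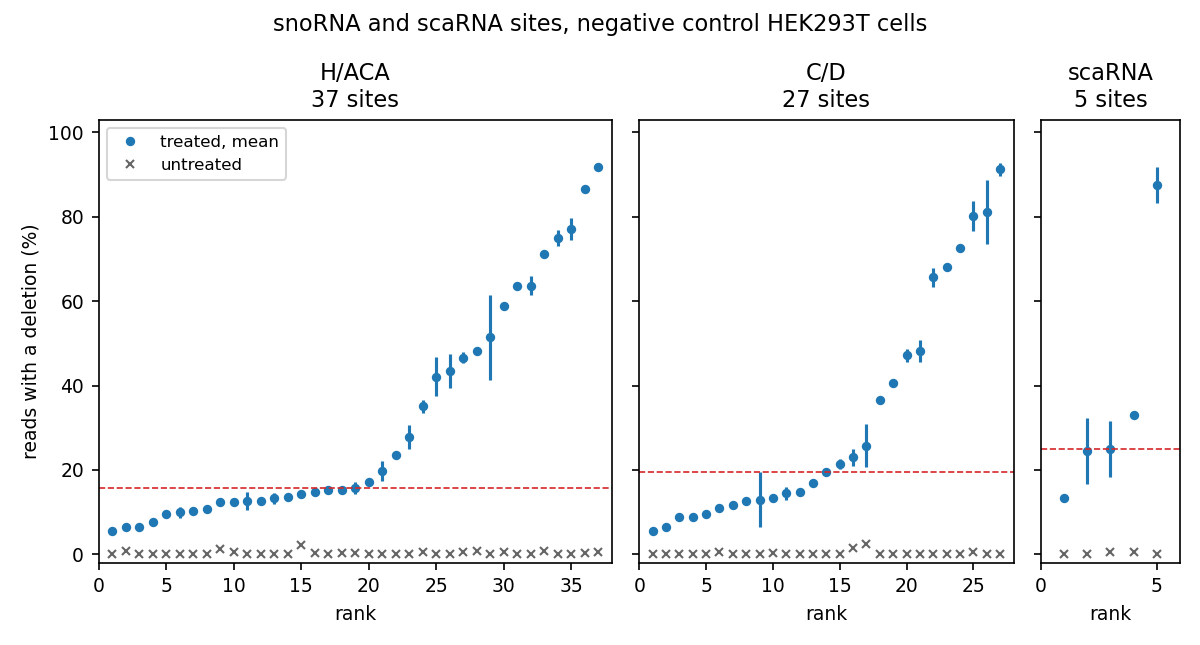
Sites of the snoRNA table ranked by mean level within H/ACA, C/D and scaRNA genes (vertical axis, percent of reads with a deletion; blue points, mean of 2 treated libraries; bars, their range; crosses, untreated library; dashed line, class median). Below 20% lie 21 H/ACA and 14 C/D sites, and the others spread up to 91.7% and 91.3%, while untreated levels reach at most 2.44%.

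Sites of the same RNA could differ widely. Of the 14 RNAs in the snoRNA table with at least 2 tested sites, 7 had more than 20 points between the highest and the lowest, and the median difference was 23.3 points. Of the 47 snoRNA and scaRNA genes with a located transcript, 45 lay inside a host gene on the same strand, 39 of these in an intron. Of the 45, 11 had a ribosomal protein gene as host, with RPL5 the host of both SNORA66 and SNORD21.

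Most listed sites cover more than 1 nucleotide. Of the 97 tested sites 33 were single, 27 had 2 nucleotides, 20 had 3, 11 had 4, 5 had 5 and 1, SNORA53 106-111, had 6. Over all listed sites with a sequence, tested or not, 61 of the 62 longer ones, RNU6-1 9-12 being the exception, consisted of uridines and covered the whole run, and all 33 single ones were lone uridines. An alignment cannot place a deletion within a run of identical bases, so the level of such a site is that of the run, and the tables do not show which or how many of its uridines are modified. Longer runs were listed more often: the listed share was 3.01% of the 1095 lone uridines in these 58 RNAs, 8.83% of runs of 2, 17.5% of runs of 3 and 27.6% of the 58 runs of 4 or more. These shares count runs and not uridines, and a longer run holds more uridines that could be modified. The rise is therefore not one per uridine. The treated levels did not follow length evenly, with medians of 17.0%, 21.3%, 14.8% and 25.8% for 1, 2, 3 and at least 4 nucleotides (rho = 0.113 over 97 sites).

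The base before the uridines was C at 44 of the 94 listed sites that are runs of uridines (46.8%) and at 37.8% of all 1550 runs in these RNAs; G preceded 20 of the 94 (21.3%) against 30.3%. In folds predicted by RNAfold, 59.7% of the 216 uridines in sites were unpaired, as were 47.3% of all 2261. The motif TNTAA or TNTAG with the site at its central T, searched on the RNA strand only, was present at 5 of 95 sites (5.26%) and at 48 of the 2261 uridines (2.12%), and GTTCNANNC with the site at the second T at 0 of each. A site was counted when any of its uridines matched, and the 95 sites hold 216 uridines. The shares of sites and of uridines therefore have unlike units and cannot show whether the motif is in excess. Motif matches and folds are descriptions of the letters, not of enzyme use.

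The background was low and moved with the length of the site. The median untreated level was 0.162% over the snRNA sites and 0.0909% over the snoRNA-table sites. It was 0 at 2 and 21 sites, where the untreated coverage allows up to 0.0764% to 2.83% by a limit of 3 reads. The median rose from 0.0335% at single sites to 0.0432%, 0.200% and 0.772% at sites of 2, 3 and at least 4 nucleotides (rho = 0.527 over 97 sites, a description). In the snoRNA table the 5 highest were SNORD97 61-65 with 2.44%, SNORA53 106-111 with 2.31%, SNORD97 71-74 with 1.57%, SNORA31 41-44 with 1.26% and SNORA74A 104-107 with 0.908%, all runs of at least 4 uridines. Both SNORD97 sites read far more after treatment, 20.6% and 31.0% at 61-65 and 25.0% and 20.9% at 71-74, and SNORA31 read 11.5% and 13.2%.

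**Figure D5:**
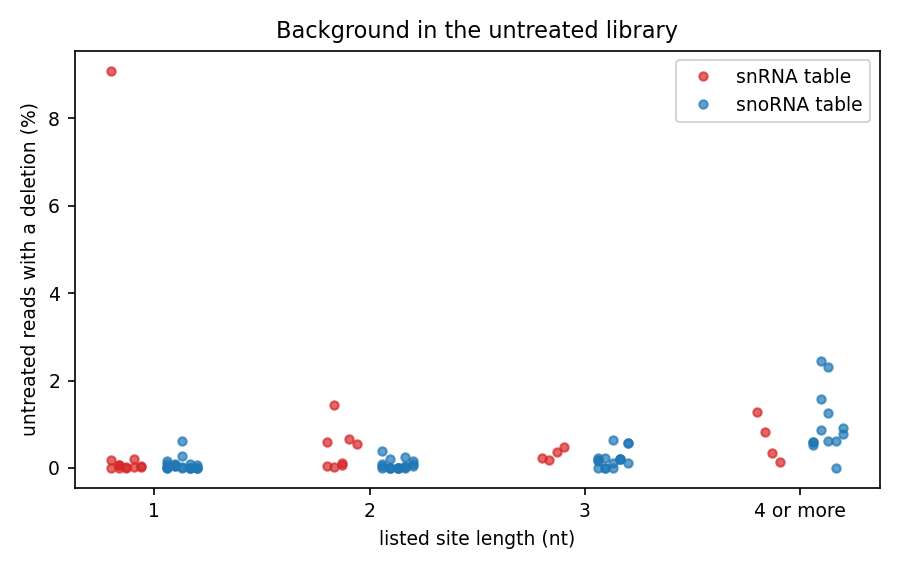
Untreated percentage of reads with a deletion at each of the 97 sites (vertical axis) by the length of the listed site in nucleotides (horizontal axis; points are spread sideways for visibility), for the snRNA and snoRNA tables. Levels rise with length up to 2.44%; the point at 9.09% is RNVU1-2A 54, read from 121 reads.

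The treated libraries ranked the sites alike (r = 0.987 and rho = 0.971 over 97 sites, which share both libraries). By Fisher's exact test on the counts, two-sided and adjusted over the table, they differed at 3 of 28 snRNA sites (10.7%): RNU2-1 58 (11.6% and 9.64%), RNU2-1 53-55 (13.7% and 11.7%) and RNU6-1 40 (67.2% and 67.5%), each with an adjusted p of 0.0124. The gap at RNU6-1 40 was 0.315 points, on 446366 and 487976 reads. At 0 of 69 snoRNA-table sites (0%) did Fisher's exact test pass; 8 had an unadjusted p under 0.05 there and 5 among the snRNA sites, and 1, SCARNA27 78-81, passed with the adjustment taken over both tables. The next largest gaps after SNORA7A 86-87 were at SCARNA5 99-101, SNORD45A 57-59, SCARNA27 78-81 and SNORD45A 24-25 (6.38% and 19.4%), at 13.1 to 15.6 points on 31 to 279 reads.

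The 4 remaining listed sites had too few reads and were left out: SNORD2 21 (61.5% and 30.8%), SCARNA21 79 (77.8% and 57.1% on 9 and 7 reads), SNORD47 57-58 (66.7% and 71.4% on 3 and 7 reads) and SNORD11 39-42. The last, with 15 and 19 reads and levels of 26.7% and 47.4%, was the site just outside the minimum.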

How the data were processed

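Deletion levels were measured in 2 treated technical replicates and 1 untreated library of the DKC1 NC genotype. Per the file headers, the authors deposited counts of reads with a deletion and of reads covering each site, with the deletion rate beside them as a fraction. Each deposited fraction equalled its counts within 1e-06. The submitters' processing notes list GRCh38 and the tools BWA, cutadapt, SAMtools 1.14 and UMI-tools 1.0.0, with no order; the way deletions were counted and sites were filtered is not given in the sources used here. The 18 columns of the knockdown libraries were not used.

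Levels are deletions over covering reads, in percent, given as mean ± SD of 2 libraries at sites with at least 20 reads in both. Treated and untreated counts were compared per site in a quasi-binomial model with dispersion moderated over the table (limma 3.58.1 squeezeVar, R 4.3.3, dispersion kept at 1 or more), an F test (two-sided) and adjustment by Benjamini and Hochberg; a call needed an adjusted p under 0.05 and 10 points. The dispersion rests on the 2 technical replicates and the lone untreated library is assumed to vary like them. Over the snRNA sites the dispersion had a median of 2.24, equal to its maximum. Over the snoRNA-table sites its median was 1, which is the minimum that was set, and its maximum was 5.34. A median at that minimum does not show that the libraries differ by counting error only. The script was tested on simulated data whose spread between libraries was a set value, not fitted to these libraries, so that check is no support for the calls. Replicates were compared with Fisher's exact test (SciPy 1.17.1). Intervals are 95% Wilson intervals, and an untreated count of 0 has a limit of 3 reads; both cover counting error only.

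Symbols were matched to GENCODE 29 and RefSeq on GRCh38; 58 of 64 RNAs had a transcript, placed by coordinates with an offset other than 0 for 11, and folded with RNAfold 2.7.2. The text names every snRNA site and, of the snoRNA table, genes with at least 3 tested sites, the 10 highest and 6 lowest sites, the 5 highest untreated levels, the 5 largest gaps between libraries, the 5 highest sites of several nucleotides and the sites at the coverage minimum; other sites named were chosen after their values were seen. Members, lists and thresholds were chosen with earlier results of these data known. Alternatives changed the coverage minimum, the way levels were pooled, the background, the test, the threshold and the libraries used. The U5 and U6 sequences are not reported here.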

Additional observations from a re-analysis of the deposited data

How the results depend on the processing

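The deletion levels rest on technical replicates and on a list of sites selected by the authors, so low levels, sites without signal and differences between cultures could not be assessed. No paired analysis was possible because the treated and untreated groups share only 1 replicate number. Leaving out a treated library leaves the test of calls with no residual degrees of freedom, so it was not run. The snRNA median of 26.8% became 26.1% with the untreated level subtracted and 18.7% without the U1 variant sites and RNU6-1 9-12, a choice made after seeing the data, which left 20 of 25 sites called. The median of the snoRNA table was 17.0% and 15.3% at coverage minimums of 50 and 100, and 17.4% to 19.4% with 1 treated library left out. The H/ACA median was 15.8% to 16.7% with 1 library left out. The C/D median was 21.3%, 17.0% and 14.8% at minimums of 10, 50 and 100. The scaRNA median was 25.6% from summed counts, 24.5% with the untreated level subtracted, and 31.5% to 32.3% with 1 library left out. With a difference of at least 20 points 14 snRNA and 33 snoRNA-table sites were called, and with 5 points all 28 and 69. On summed counts Fisher's exact test called 22 and 58 sites. Coverage minimums of 10, 50 and 100 gave 60 of 71, 52 of 63 and 46 of 57 snoRNA-table calls. The count of snoRNA-table sites where the treated libraries differ went from 0 to 1 at minimums of 50 and 100 and with adjustment over both tables. Of the 66 named sites, 52 moved by no more than the SD of their libraries when the untreated level was subtracted and 14 by more. Sites under 100 reads, most of them C/D and scaRNA, have wide counting intervals.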
